A study of Mus musculus with 18 samples.

Results

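The 6 genes described here are *Ciita*, *Cd74*, *H2-Aa*, *H2-Ab1*, *H2-Eb1* and *H2-DMa*, chosen as the MHC class II group and its regulator out of 22225 protein-coding genes of GENCODE vM1 on the mouse mm9 chromosomes. Each locus was the annotated gene span plus 20 kb on either side, and because the flanked loci of *H2-Ab1*, *H2-Aa* and *H2-Eb1* overlap, the 6 loci form 4 separate stretches of 43.9 to 93.0 kb. The data were 18 ChIP-seq libraries from C10 cells, 1 clone derived from the HAFTL pre-B cell line that carries a C/EBPα-estrogen receptor fusion marked with GFP. Cells received β-estradiol, which moves the fusion into the nucleus, together with IL-3 and CSF-1, and turn into macrophage-like cells. Control cells received the ethanol solvent. C/EBPα was precipitated at 0 h, 10, 30 and 60 min, 3, 12, 24 and 48 h after induction, and C/EBPβ and PU.1 at 0, 3, 12, 24 and 48 h post-induction (hpi). No control precipitation was used here. Each factor and time was 1 library, so differences between times have no replicate check. The values below therefore carry 95% intervals for counting error only, and no p-value was computed.

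MHC class II molecules present peptides to helper T cells. H2-Aa and H2-Ab1 encode the α and β chains of I-A, H2-Eb1 the β chain of I-E, Cd74 the invariant chain that occupies the groove during transport, and H2-DMa a chain of the H2-DM complex that exchanges the invariant chain remnant for peptide. CIITA is the coactivator on which their transcription depends: it binds no DNA itself and is recruited by RFX, CREB and NF-Y factors that sit on X and Y boxes in the promoters. *Ciita* has alternative promoters used in different cells, with promoter I in myeloid and dendritic cells, promoter III in B cells and promoter IV after interferon, and PU.1 with an IRF partner is known to bind promoter III.

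Libraries held 2901164 to 24909437 reads after keeping 1 read per position and strand. The C/EBPβ libraries were the shallowest (2901164 to 5843194 reads), and the PU.1 libraries held 6574957 to 11349498. A site was a run of 200-bp bins with more reads than the library mean and the surrounding 10 kb would give. Its value is the number of reads within 200 bp of the summit per 10000000 reads, called reads per 10 M below. Over all chromosomes 77048 sites were called in at least 1 library, and 40 of them lay in the class II loci: 8 around *Ciita*, 9 around *H2-DMa*, 13 in the *H2-Ab1*, *H2-Aa* and *H2-Eb1* stretch and 10 around *Cd74*. Of the 40, 15 had their nearest start at another gene, such as *Clec16a*, *Brd2*, *H2-DMb2*, *H2-Eb2* or *Tcof1*, and 6 lay within 1 kb of a start of a member. Between 0% and 3.45% of the bins of each locus held no read in any library, against a median of 1.15% over 21281 autosomal loci. Locus read density relative to the library median had medians over the libraries of 0.808 for *H2-Ab1* and 0.875 for *H2-Aa*. It was 1.19 for *Ciita*, 1.2 for *H2-Eb1*, 1.65 for *Cd74* and 1.9 for *H2-DMa*. The authors aligned without mismatches, and a part of strain differences from the reference in the values was not tested.

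The sites beside 2 of the alternative starts of *Ciita* and in an intron, read from the mm9 plus strand, are shown first as the places where PU.1 was compared in full at the class II coactivator. Capitals mark GGAANNGAA, a form of the composite element that PU.1 and IRF factors share, in the first sequence, and GAGGAA, the core of the PU.1 motif, on either strand in the other two. Positions are chr16:10488086-10488235, chr16:10489376-10489525 and chr16:10496236-10496385.
Ciita promoter III site: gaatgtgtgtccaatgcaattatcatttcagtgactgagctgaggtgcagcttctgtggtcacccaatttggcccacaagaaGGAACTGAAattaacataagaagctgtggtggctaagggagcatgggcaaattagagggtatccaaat
Ciita promoter IV site: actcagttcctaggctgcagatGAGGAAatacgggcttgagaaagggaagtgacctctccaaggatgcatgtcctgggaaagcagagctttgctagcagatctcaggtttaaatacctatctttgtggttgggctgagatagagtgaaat
Ciita intron site: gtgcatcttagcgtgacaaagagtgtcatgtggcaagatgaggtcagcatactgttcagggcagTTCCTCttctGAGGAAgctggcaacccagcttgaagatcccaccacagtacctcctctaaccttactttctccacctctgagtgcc

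The 2 sites of the *H2-DMa* locus with the most C/EBPα, both also bound by PU.1, and the site upstream of *H2-Ab1* with the highest PU.1 value, are given next on the plus strand (chr17:34254157-34254265, chr17:34280096-34280245 and chr17:34394606-34394755), with GGAANNGAA in capitals in the second. The first was shortened to leave out annotated exon sequence. Its printed bases hold none of the letters searched, while the full 150 bases around its summit hold 1 GGAANNGAA, and the third holds none.
H2-DMa Brd2 intron site: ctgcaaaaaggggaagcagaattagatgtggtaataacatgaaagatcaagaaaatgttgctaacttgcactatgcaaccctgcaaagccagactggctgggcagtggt
H2-DMa site before H2-DMb2: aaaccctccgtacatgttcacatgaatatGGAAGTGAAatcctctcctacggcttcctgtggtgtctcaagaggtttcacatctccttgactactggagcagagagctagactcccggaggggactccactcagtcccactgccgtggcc
H2-Ab1 -5.5 kb site: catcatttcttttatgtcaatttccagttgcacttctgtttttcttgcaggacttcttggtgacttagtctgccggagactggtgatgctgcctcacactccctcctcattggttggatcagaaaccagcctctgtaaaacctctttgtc

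The 150 bases before the outermost start of the 3 chain genes show the other kind of control region, here on each gene's own strand (chr17:34400004-34400153, chr17:34442678-34442827 and chr17:34424773-34424922). In the *H2-Ab1* and *H2-Eb1* sequences, capitals mark an X box, searched as AGNNACNGA, followed by a Y box, searched as ATTGG. Their first letters lie 15 to 35 bases apart. In the *H2-Aa* sequence, capitals mark the Y letters alone.
H2-Ab1 promoter: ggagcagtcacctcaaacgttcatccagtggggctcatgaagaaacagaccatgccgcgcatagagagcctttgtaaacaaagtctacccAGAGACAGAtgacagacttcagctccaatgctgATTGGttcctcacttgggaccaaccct
H2-Eb1 promoter: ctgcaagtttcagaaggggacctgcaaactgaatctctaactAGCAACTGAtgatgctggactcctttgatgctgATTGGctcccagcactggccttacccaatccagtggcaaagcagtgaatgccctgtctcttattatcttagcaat
H2-Aa promoter: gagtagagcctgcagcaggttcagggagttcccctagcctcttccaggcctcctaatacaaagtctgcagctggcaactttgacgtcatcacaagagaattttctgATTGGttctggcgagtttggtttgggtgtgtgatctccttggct

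These X and Y letters in that order stood before 31 of 45993 annotated protein-coding starts (0.0674%), among them *H2-Ab1*, with X at -60 and Y at -27, and *H2-Eb1*, with X at -108 and Y at -75. The *H2-Aa* promoter held the Y letters alone, at -44, and Y letters, with or without X, stood before 13.6% of starts. Before the *H2-DMa* start and the first start of the *Ciita* promoter III group the X letters stood alone, at -137 and -104, and before the *Cd74* starts neither was found. Only these letters on the gene's own strand were searched. A box in other letters or on the other strand would be missed, so an absence here is of these letters only. No bound site of any of the 3 factors had its summit in these 3 windows.

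**Figure D1:**
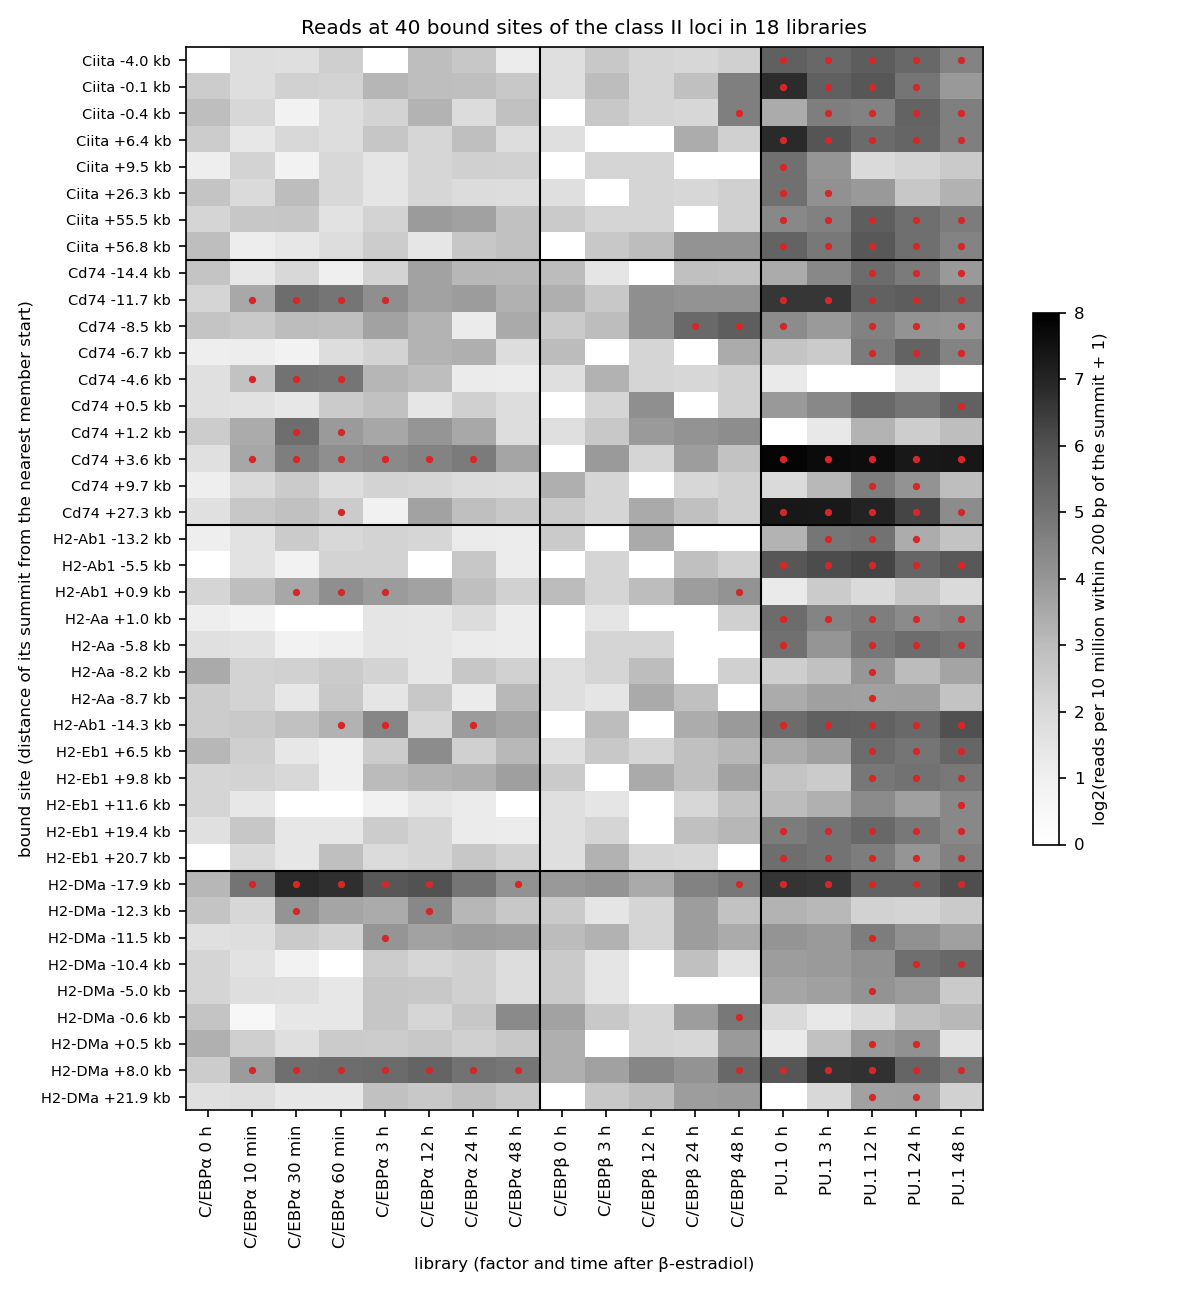
Each row is a bound site, named by the nearest member start and the distance of the summit from it, and each column a library. Grey shows log2(reads per 10 M within 200 bp of the summit + 1), red points mark libraries in which the site was called, and lines part the factors and the 4 stretches. PU.1 was called at 35 of the 40 rows, C/EBPα at 11 and C/EBPβ at 6. Over the genome they were called at 59187, 29125 and 14073 of 77048 sites.

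PU.1 was called at 35 of the 40 sites at some time, and at 76.8% of all sites in the genome. All 6 loci held a PU.1 site at 0 h and at 48 hpi, as did 57.8% and 63.3% of protein-coding loci. At any time the share of loci was 75.2%. The number of PU.1 sites called in the class II loci was 19 at 0 h, 18 at 3, 30 at 12, 27 at 24 and 24 at 48 hpi. The libraries at 0 h and 48 hpi differed in depth, at 7051533 and 10465427 reads, and thinned to the smallest PU.1 library they gave 19 and 18 sites. At 1.5 times the count needed the numbers were 15 and 14. The 12 hpi library also had the most called bins in the genome, 72685 against 37227 at 0 h. PU.1 alone was called at 26 of the 40 sites, and 58.2% of all sites were of that kind.

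The PU.1 sites differed in direction. Each is in the list through the libraries where it was called. For a site called at 1 end alone, the direction is partly set by that choice. Of the 35, 9 were at least 2-fold lower at 48 hpi than at 0 h (18.1% of all PU.1 sites in the genome) and 10 at least 2-fold higher (27.9%). Counting intervals of the ratio lay below 1 at 11 sites (16.4% of all PU.1 sites) and above 1 at 8 (22.0%). The median log2 of 48 hpi over 0 h was -0.34 over the 34 member sites with a ratio and 0.13 over 58216 PU.1 sites. By locus, 5 of 8 PU.1 sites around *Ciita* were at least 2-fold lower and 1 at least 2-fold higher. In the *H2-Eb1* locus 4 of 9 were at least 2-fold higher and 0 at least 2-fold lower.

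**Figure D2:**
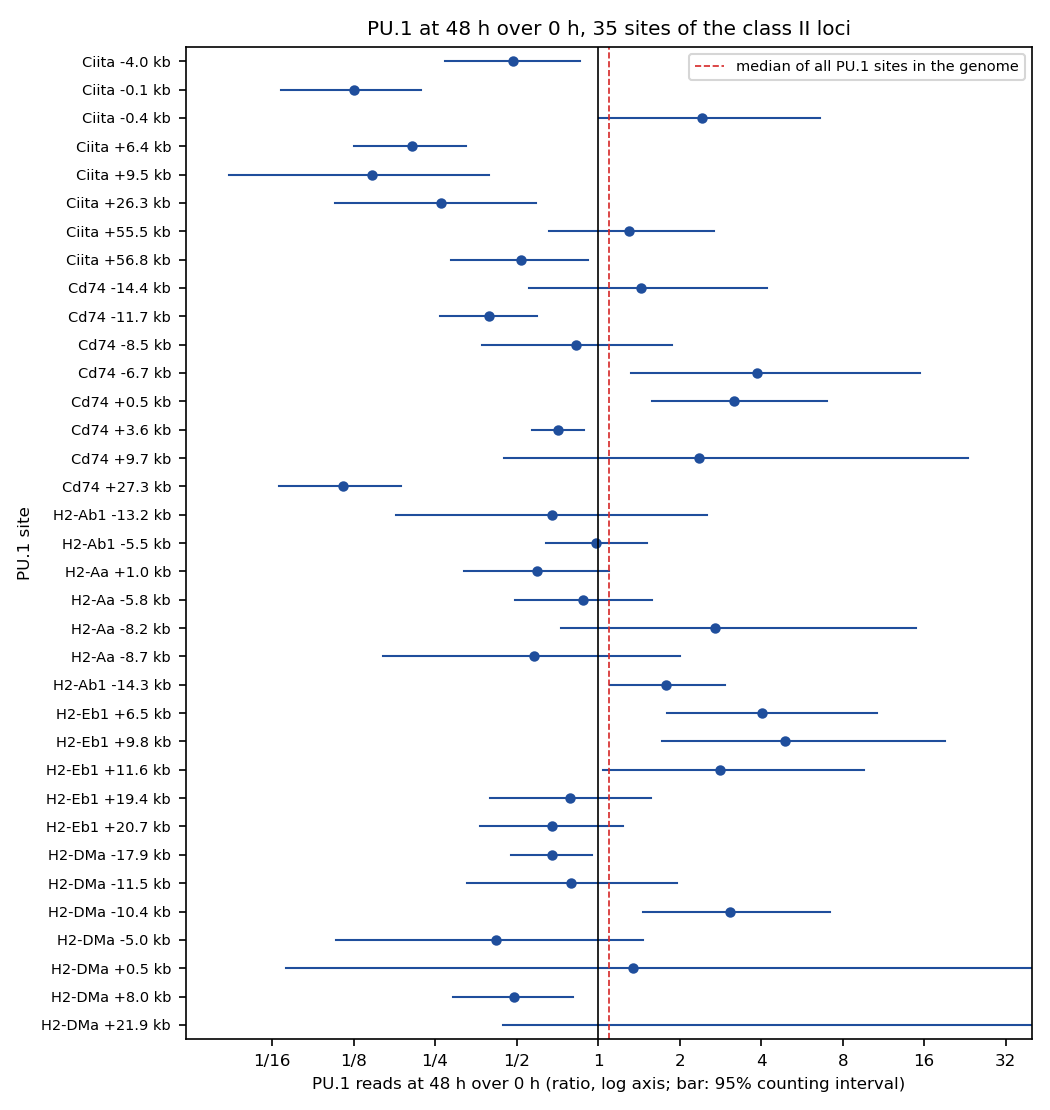
PU.1 reads at 48 hpi divided by those at 0 h, on a log axis, for the 35 PU.1 sites, with 95% counting intervals clipped at the edges of the plot. The black line is a ratio of 1 and the dashed red line the median of all PU.1 sites; the Ciita promoter III site is at 0.126, and H2-DMa +21.9 kb has no point because it held 0 reads at 0 h.

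The largest PU.1 values at *Ciita*, the class II coactivator, were at promoter III and in an intron before induction. The gene lies on the plus strand at chr16:10480237-10527657, with annotated starts that are taken here, by their order, as promoters I (10480237), III (10488271 to 10488392) and IV (10489876). The promoter III site (chr16:10488001-10488400, summit at -111 bp from the first start of that group) held 113.5 reads per 10 M of PU.1 at 0 h. It held 45.6 at 3, 56.0 at 12, 29.1 at 24 and 14.3 at 48 hpi. The 0 h value was thus the highest and the 48 hpi value the lowest, 7.92-fold lower (interval 4.52 to 14.8), and the site was no longer called in the last library. At 3 hpi it was already 2.49-fold lower than at 0 h (1.62 to 3.92). The site is in the list only through libraries before 48 hpi, so a lower value at 48 hpi is partly set by that choice.

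The intron site (chr16:10496001-10496400, summit 6.43 kb after the nearest start) was also highest at 0 h and lowest at 48 hpi. PU.1 there held 116.3 reads per 10 M at 0 h, 57.8 at 3, 36.4 at 12, 41.4 at 24 and 23.9 at 48 hpi. The difference between the ends was 4.87-fold (3.08 to 7.95), and the site was called at all 5 times. Its printed sequence has GAGGAA on both strands and no GGAANNGAA. In the gene body, the sites at +9.5 and +26.3 kb held 32.6 reads per 10 M each at 0 h and 4.78 and 8.6 at 48 hpi. The former is in the list through the 0 h library alone, the latter through those at 0 h and 3 hpi. Their lower values at 48 hpi are thus partly set by that choice.

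The site before promoter IV (chr16:10489201-10489600, summit at -426 bp from the start) went the other way. PU.1 held 9.93 reads per 10 M at 0 h, where it was not called, 24.3 at 3, 22.4 at 12, 43.2 at 24 and 23.9 at 48 hpi. The 24 hpi value was 4.35-fold that at 0 h (1.96 to 11.4) and the 48 hpi value 2.41-fold (1.01 to 6.59). The site is in the list only through libraries after 0 h, so ratios above 1 are partly set by that choice. C/EBPβ was called there in the 48 hpi library only, with 23.7 reads per 10 M against 0 to 5.13 at the earlier times. At promoter III the C/EBPβ value at 48 hpi was the same 23.7, against 2.34 to 6.85 before, without a call. In the wider window of 500 bp around the first promoter III start it was 27.6 at 48 hpi, with 11.7 at 0 h and 24.1 already at 12 hpi.

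C/EBPα was called nowhere in the *Ciita* locus in any of its 8 libraries, although at a looser Poisson p of 1e-05 all 6 loci held a C/EBPα site. Its values at the 8 sites ran from 0 to 13.4 reads per 10 M, and 55.5% of protein-coding loci had a C/EBPα site at some time. Promoter I, the start known from myeloid cells, held no site. Within 500 bp of it the PU.1 libraries had 7.09, 4.56, 3.73, 6.17 and 4.78 reads per 10 M, against medians over 45993 starts of 5.67, 6.08, 8.40, 7.93 and 5.73. C/EBPβ in that window had 24.1 at 12 hpi, from 7 reads, above 96.3% of all starts, and 3.2 to 4.67 in its other libraries. For the first start of the promoter III group the same window held 129.0 of PU.1 at 0 h and 16.2 at 48 hpi, which were above 99.4% and 77.8% of all starts. Across the *Ciita* locus, reads at the 8 PU.1 sites summed to 412.7 reads per 10 M at 0 h and 145.2 at 48 hpi, 2.84-fold lower. The ratio of these sums was 0.352 (0.287 to 0.43) for *Ciita*, 0.603 (0.519 to 0.7) for *Cd74* and 0.795 (0.63 to 1.0) for *H2-DMa*. It was 0.87 (0.668 to 1.14) for *H2-Aa*, 1.07 (0.823 to 1.4) for *H2-Ab1* and 1.2 (0.953 to 1.52) for *H2-Eb1*. By counting error alone, the interval lay apart from those of the other 5 for *Ciita* only. The sums run over sites chosen by their calls in these libraries, and those of *H2-Aa*, *H2-Ab1* and *H2-Eb1* share sites. The difference between loci was thus not tested. The *Ciita* sums take in the sites at +55.5 and +56.8 kb, nearest to the start of *Clec16a*. The *Cd74* sums, 537.5 at 0 h and 323.9 at 48 hpi, take in the +27.3 kb site in an intron of *Tcof1*. That site held 158.8 at 0 h and was 8.75-fold lower at 48 hpi, so the *Cd74* ratio depends strongly on it.

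**Figure D3:**
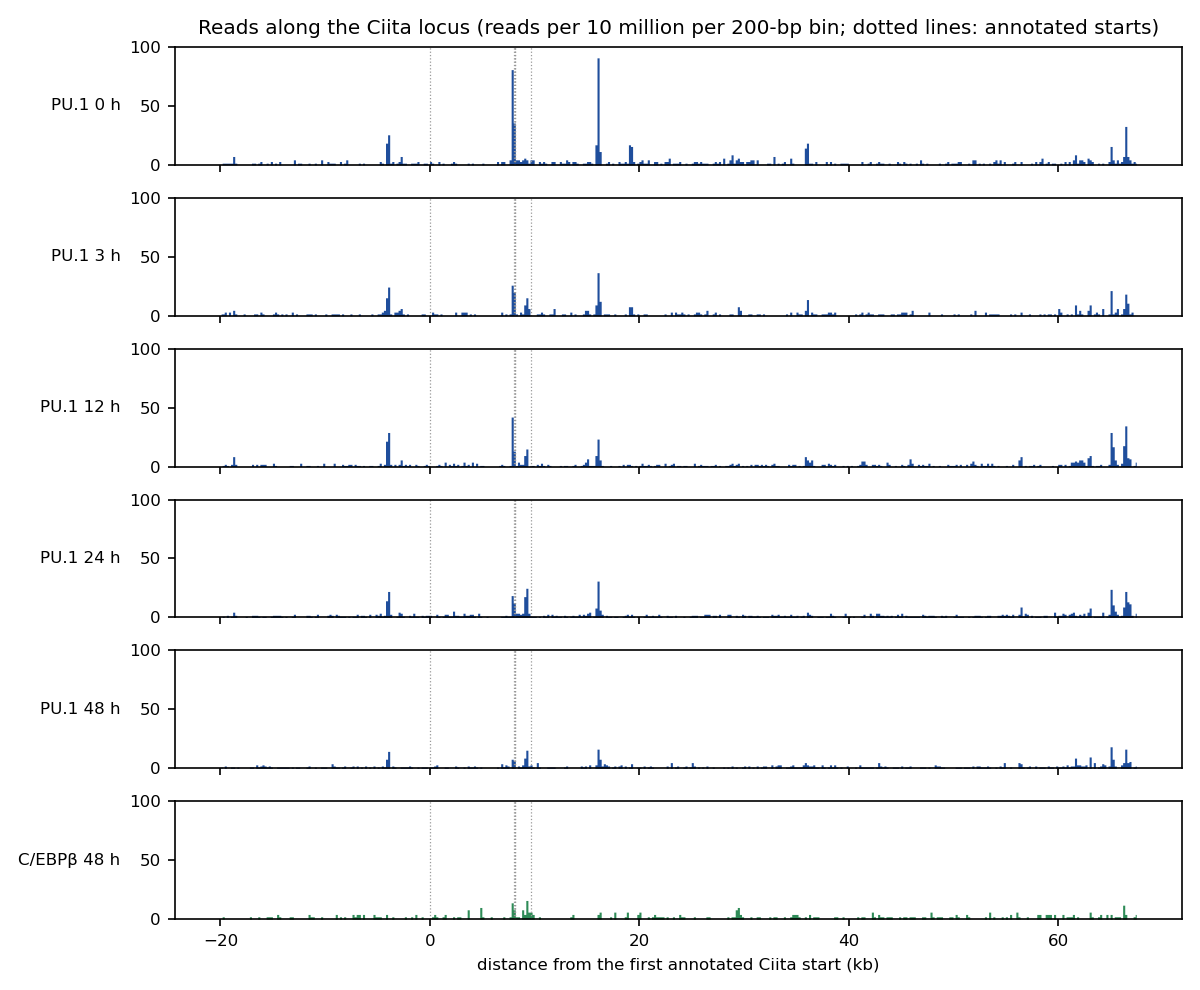
Reads per 10 M in 200-bp bins along the Ciita locus, by distance from the first annotated start, for PU.1 at 5 times and C/EBPβ at 48 hpi; dotted lines are annotated starts. The bins at promoter III and in the intron are tallest at 0 h, where the intron bin reaches 90.8, and the site before promoter IV is called from 3 hpi.

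At *H2-DMa*, a subunit of the peptide exchange complex (plus strand, chr17:34272127-34276046), C/EBPα was called at 2 sites at 10 min. The first (chr17:34254001-34254400) lies upstream of the gene in an intron of *Brd2*, a bromodomain gene, and its C/EBPα values were 7.89 reads per 10 M at 0 h, 29.7 at 10 min, 118.5 at 30 min, 107 at 60 min, 55.7 at 3, 62.0 at 12, 29.0 at 24 and 16.3 at 48 hpi. The 30 min value was the highest of C/EBPα at the 40 sites, and the interval of its ratio to 0 h ran from 7.11 to 37.9. It was 7.25-fold that at 48 hpi (4.12 to 13.9), and the site was called in all libraries but those at 0 and 24 hpi. The site is given in full for that 30 min value, so ratios of it above 1 are partly set by that choice. PU.1 was there at 0 h with 99.3 reads per 10 M, and had 94.3 at 3, 43.9 at 12, 44.1 at 24 and 66.9 at 48 hpi. PU.1 was thus lowest at 12 and 24 hpi, after the C/EBPα peak.

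The second site (chr17:34279401-34280400, 8.04 kb downstream) lies just before the start of *H2-DMb2*, which encodes a β chain of the same complex. C/EBPα held 4.51 reads per 10 M at 0 h, 13.6 at 10 min, 33.8 at 30 min, 35.3 at 60 min, 36.8 at 3, 41.9 at 12, 31.6 at 24 and 28.9 at 48 hpi. Unlike at the *Brd2* intron site, the 48 hpi value was close to that at 30 min (ratio 0.854, 0.492 to 1.45). PU.1 was highest in the middle, with 56.7 at 0 h, 98.9 at 3, 103.6 at 12, 40.5 at 24 and 27.7 at 48 hpi. C/EBPβ was highest last, with 39.4 at 48 hpi against 9.34 at 0 h (4.22-fold, with an interval whose lower bound was 1.41). The log2 of that C/EBPβ ratio was 2.08, against a median of 2.39 over 12176 C/EBPβ sites in the genome. The site is given in full partly for its 48 hpi C/EBPβ value, so a ratio above 1 is partly set by that choice.

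Within 1 kb of the *H2-DMa* start lay 2 weaker sites. The one 0.587 kb upstream was called for C/EBPβ at 48 hpi, at 27.6 reads per 10 M, and not for PU.1. C/EBPα there had 18.9 at 48 hpi and 0.401 to 5.64 earlier, without a call. The one 0.483 kb downstream, in an annotated UTR, was called for PU.1 at 12 and 24 hpi, at 14.0 and 16.7 reads per 10 M, with 1.42 at 0 h and 1.91 at 48 hpi. Farther upstream C/EBPα was called at 2 more sites with lower values, at -12.3 kb at 30 min and 12 hpi, with 15.4 and 20.1 against 5.64 at 0 h, and at -11.5 kb at 3 hpi, with 15.3 against 2.26. Both lie nearest to the start of *Brd2*, at -578 and -1318 bp from it.

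**Figure D4:**
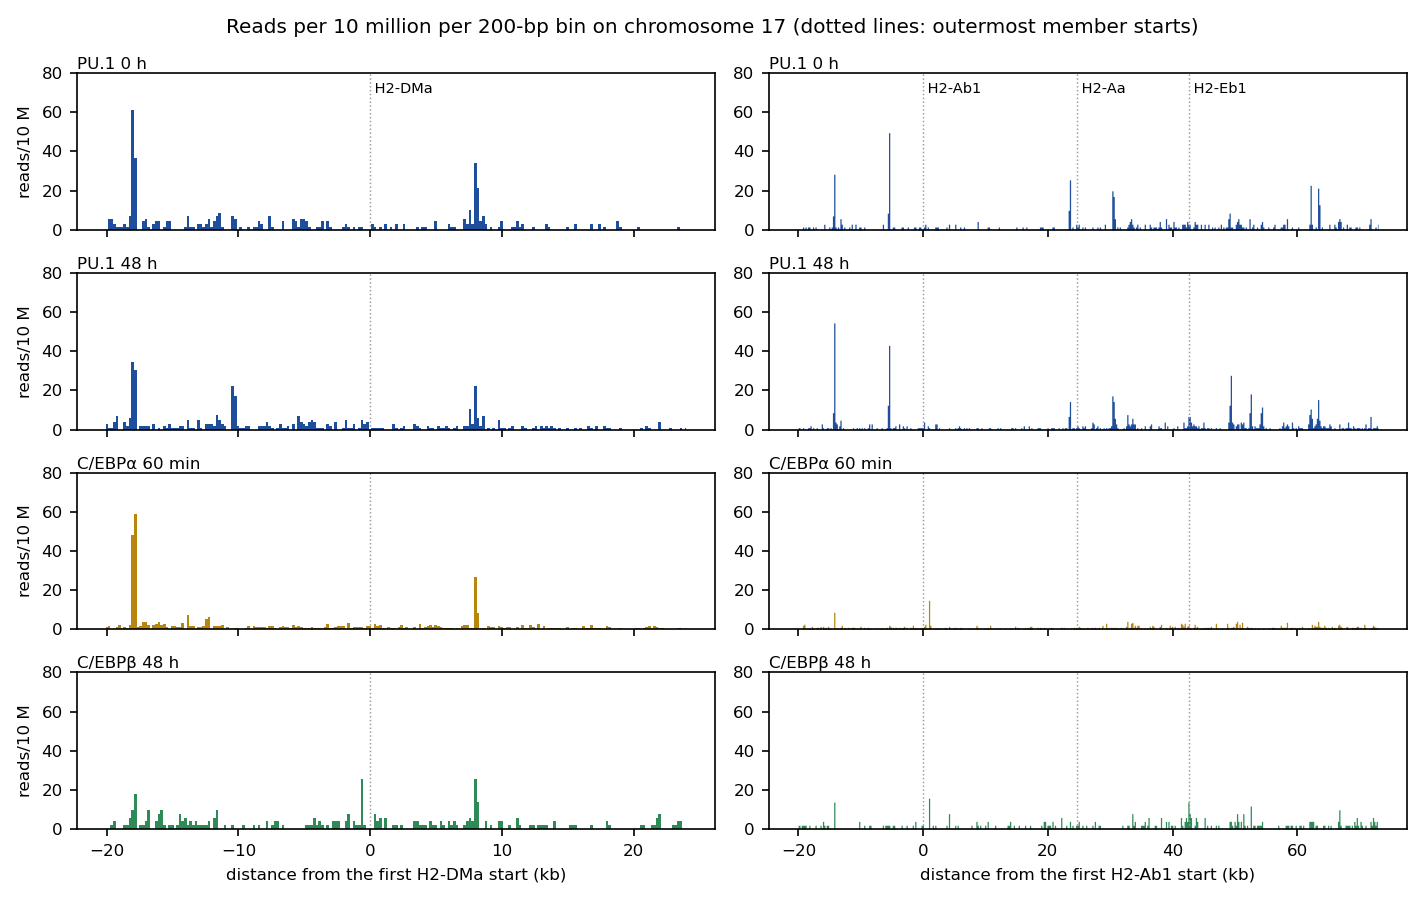
Reads per 10 M in 200-bp bins around H2-DMa (left) and across H2-Ab1, H2-Aa and H2-Eb1 (right), by distance from the first start of H2-DMa or H2-Ab1; dotted lines are the outermost starts of the members. The tallest C/EBPα bin at 60 min is in the Brd2 intron on the left, at 58.9, while on the right it reaches 14.8, just inside H2-Ab1.

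The next stretch holds *H2-Ab1* (plus strand, chr17:34400154-34406363), *H2-Aa* (minus strand, chr17:34406276-34424772) and *H2-Eb1* (plus strand, chr17:34442828-34453144), the genes for the class II chains. Its PU.1 sites lay inside, between and on either side of these genes. Within 500 bp of the starts of *H2-Ab1* and *H2-Aa* PU.1 had 3.04 to 11.2 reads per 10 M in all libraries. At the first *H2-Eb1* start it had 9.93 at 0 h and 21.0 at 48 hpi, the latter above 83.6% of all starts, and no site was called there. The PU.1 site with the highest value of the stretch (chr17:34394401-34394800), between *H2-Ob* and *H2-Ab1*, had 55.3 reads per 10 M at 0 h, 68.4 at 3, 77.5 at 12, 40.5 at 24 and 54.5 at 48 hpi. The first and last values did not differ beyond counting error (ratio 0.985, 0.644 to 1.52). The site 14.3 kb before *H2-Ab1*, in an intron of *H2-Ob* that encodes a chain of the H2-DM inhibitor H2-O, had 35.5 at 0 h, 45.6 at 3, 43.9 at 12, 37.9 at 24 and 63.1 at 48 hpi (1.78-fold from first to last, 1.11 to 2.94), where it was the higher of the pair.

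The *H2-Aa* site, in a noncoding exon 1.04 kb inside the gene, was called for PU.1 at all 5 times, with 35.5, 21.3, 24.3, 18.5 and 21.0 reads per 10 M from 0 to 48 hpi.

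Inside and just after *H2-Eb1*, 3 sites were called for PU.1 after induction and not at 0 h. They are in the list through those later libraries only, so ratios to 0 h above 1 are partly set by that choice. At the site in its intron (chr17:34449201-34449600, 6.51 kb after the start) PU.1 had 9.93 reads per 10 M at 0 h, 12.2 at 3, 35.5 at 12, 29.1 at 24 and 40.1 at 48 hpi, and was called from 12 hpi on. The 48 hpi value was 4.04-fold that at 0 h (1.80 to 10.7). A second intron site at +9.8 kb had 5.67 at 0 h and 27.7 at 48 hpi (4.89-fold, 1.72 to 19.1), and the site past the end of the gene at +11.6 kb had 7.09 and 20.1.

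C/EBPα was called at 2 of the 13 sites of this stretch and C/EBPβ at 1. Over the genome they were called at 29125 and 14073 of 77048 sites. C/EBPα at the intron site 0.905 kb inside *H2-Ab1* (chr17:34401001-34401200) had 3.38 reads per 10 M at 0 h, 6.82 at 10 min, 10.8 at 30 min, 16.9 at 60 min, 13.5 at 3, 11.7 at 12, 6.59 at 24 and 3.77 at 48 hpi. It was called from 30 min to 3 hpi, and C/EBPβ was called at 48 hpi with 15.8. PU.1 had 1.42 to 5.29 there and was not called. At the *H2-Ob* intron site C/EBPα had 4.51 at 0 h, 4.82 at 10 min, 6.15 at 30 min, 8.70 at 60 min, 20.7 at 3, 3.35 at 12, 13.2 at 24 and 11.3 at 48 hpi. It was called at 60 min, 3 and 24 hpi, and the 12 hpi value between the calls was the lowest of the 8. *H2-Eb1* was the other member, beside *Ciita*, with no C/EBPα site, and the only one with no C/EBPβ site. At a Poisson p of 1e-05 all 6 loci held a site of each. Within 500 bp of the *H2-Eb1* start C/EBPβ had 23.4 reads per 10 M at 0 h, 5.13 at 3, 3.45 at 12, 22.4 at 24 and 31.5 at 48 hpi, without a call. The values at 0 h and 48 hpi lay above 96.2% and 95.3% of all starts, and those at 3 and 12 hpi above 39.4% and 24.6%. C/EBPα in the same window had 16.2 at 30 min, above 95.2% of all starts, and 3.77 to 11.3 in its other libraries.

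*Cd74*, the invariant chain gene (plus strand, chr18:60963502-60972300), had the tallest PU.1 site of the 6 loci. It lay in an intron 3.59 kb after the start (chr18:60966801-60967400), with 231.2 reads per 10 M at 0 h, 200.8 at 3, 192.3 at 12, 161.2 at 24 and 164.4 at 48 hpi. It remained called throughout and was 1.41-fold lower at 48 hpi than at 0 h (ratio 0.711, 0.571 to 0.886). C/EBPα at this site had 2.26 at 0 h, 10.8 at 10 min, 24.6 at 30 min, 16.9 at 60 min, 18.9 at 3, 21.8 at 12, 26.4 at 24 and 11.3 at 48 hpi.

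Upstream of *Cd74*, C/EBPα and C/EBPβ were called at different sites. At the farther site (chr18:60951601-60952000) C/EBPα had 3.38 reads per 10 M at 0 h, 10.4 at 10 min, 35.4 at 30 min, 29.2 at 60 min, 17.1 at 3, 11.7 at 12, 13.2 at 24 and 8.80 at 48 hpi. C/EBPβ had 9.34 there at 0 h and 15.8 at 48 hpi, with 5.13 to 17.2 between, without a call, and its 8 reads at 48 hpi equal the number at the called site inside *H2-Ab1*. PU.1 there was 96.4 at 0 h, 97.3 at 3, 44.8 at 12, 49.3 at 24 and 38.2 at 48 hpi. At -8.5 kb (chr18:60954801-60955000) C/EBPβ had 4.67 at 0 h, 6.85 at 3, 17.2 at 12, 38.4 at 24 and 47.3 at 48 hpi, 10.1-fold higher at the end (2.51 to 88.4). The 0 h value rests on 2 reads. This site is given in full for its 48 hpi C/EBPβ value, so a ratio above 1 is partly set by that choice. C/EBPα at that site stayed between 1.32 and 11.7 and was not called. Nearer the gene, C/EBPα was called at 2 sites where PU.1 was not. At -4.6 kb it had 31.5 at 30 min and 29.2 at 60 min against 2.26 at 0 h, and at +1.2 kb, in an intron, 34.6 at 30 min against 4.51 at 0 h. Both were back at 1.26 and 2.51 by 48 hpi.

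Near the *Cd74* start, the site 0.530 kb inside the gene (chr18:60964001-60964200) was called for PU.1 at 48 hpi only. PU.1 had 14.2 reads per 10 M at 0 h, 19.8 at 3, 38.3 at 12, 29.1 at 24 and 44.9 at 48 hpi. The ends differed 3.17-fold (1.58 to 7.03), but the site is in the list through the 48 hpi library alone. A ratio above 1 is thus partly set by that choice. Within 500 bp of the first start itself PU.1 had 19.9 at 0 h, 50.4 at 12 and 19.1 at 48 hpi, and within 1000 bp, which takes in the called site, 41.1 at 0 h, 81.2 at 12 and 70.7 at 48 hpi. At the far end of the locus, the site at +27.3 kb in an intron of *Tcof1* had 158.8 at 0 h and 18.2 at 48 hpi, 8.75-fold lower. That was the lowest PU.1 ratio among the 34 sites with one, below that of the *Ciita* promoter III site.

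**Figure D5:**
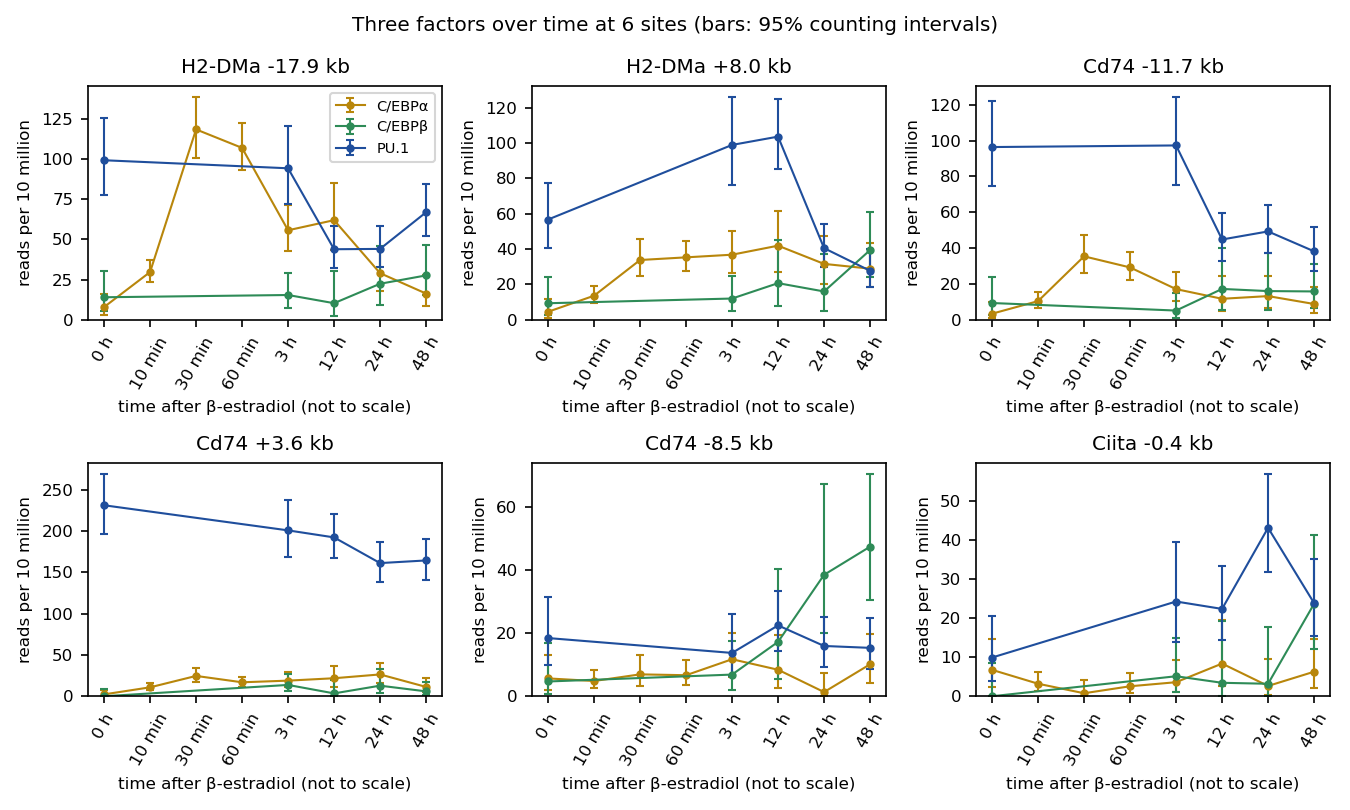
Reads per 10 M within 200 bp of the summit of 6 sites for C/EBPα, C/EBPβ and PU.1 at each time (time axis not to scale), with 95% counting intervals. Panels have their own vertical scales; C/EBPα peaks at 30 min, at 118.5, at the H2-DMa site in the Brd2 intron, C/EBPβ reaches 47.3 at Cd74 -8.5 kb, and PU.1 at Cd74 +3.6 kb is the highest series.

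Over the 6 loci, the number of C/EBPα sites called was 0 at 0 h, 5 at 10 min, 8 at 30 min, 9 at 60 min, 7 at 3, 4 at 12, 3 at 24 and 2 at 48 hpi. The libraries at 10, 30 and 60 min were also the deepest, at 24909437, 13000559 and 19536916 reads of 50 bases from another sequencer, against 5968544 to 11126508 reads of 36 bases at the other times. Thinned to the smallest library, C/EBPα was called at 9 sites at any time and 1 at 48 hpi, and the part of read length and sequencer was not tested. Over the genome the called C/EBPα bins numbered 27297 at 60 min and 8569 at 48 hpi, and after thinning 15108 at 60 min, 16857 at 3 hpi and 6811 at 48 hpi. Of the 11 sites, 10 were first called within 60 min, against 65.2% of all C/EBPα sites in the genome, and 8 of these 10 were not called at 48 hpi, against 82.0%. Of all C/EBPα sites in the genome, 22.6% were called in the 48 hpi library. The median log2 of 48 hpi over 0 h was 1.16 over the 11 member sites of C/EBPα and 0.67 over 26607 in the genome. Loci with a C/EBPα site numbered 0 of 6 at 0 h (9.98% of protein-coding loci), 4 of 6 at any time (55.5%) and 1 of 6, *H2-DMa*, at 48 hpi (25.5%). Among the 4, *H2-Aa* was counted only through the site 0.905 kb inside *H2-Ab1*, which also counts for *H2-Ab1*. The sites of the *H2-DMa* locus called at 48 hpi had their nearest starts at *Brd2* and *H2-DMb2*.

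C/EBPβ followed at the end. It was called at 0 sites at 0, 3 and 12 hpi, 1 at 24 and 6 at 48 hpi, so that 5 of the 6 loci held a site in the last library, beside 36.9% of protein-coding loci (3.82% at 0 h and 39.4% at any time). Of the 6 C/EBPβ sites 3 were also called for C/EBPα at some time, against 78.3% of C/EBPβ sites in the genome, and these were 3 of the 11 C/EBPα sites, against 37.8%. *H2-Aa* and *H2-Ab1* were counted through the same site, the one 0.905 kb inside *H2-Ab1*. With reads moved 50 bp or at 1.5 times the count needed, C/EBPβ sites were found in 2 loci, and with libraries thinned in 3. The C/EBPβ library at 48 hpi held 5073864 reads, and that at 12 hpi 2901164, the fewest of all. For C/EBPβ the median log2 of 48 hpi over 0 h was 1.24 over the 5 member sites with a ratio. Over 12176 C/EBPβ sites in the genome it was 2.39.

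Motif letters at these sites were counted beside those at all sites. In the 150 bases around the summit, GAGGAAGT, the long PU.1 form, stood in 1 of 35 PU.1 sites, against 22.6% of PU.1 sites in the genome, and its core GAGGAA in 16 of 35, against 49.5%. GGAANNGAA, which can overlap the core, stood in 9 of 35 (25.7%), against 13.7%. TTGCNNAA, a C/EBP form, stood in 1 of 14 sites called for either C/EBP, against 30.0%. All were searched on both strands, GAGGAA lies within GAGGAAGT, and the letters were chosen after the sites were known.

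Other genes of class II presentation were read the same way. Of 17 listed genes, 17 had a PU.1 site in the span plus 20 kb at 0 h and 17 at 48 hpi, against 57.8% and 63.3% of protein-coding loci. A C/EBPα site was found at 15 at any time, 5 at 0 h and 8 at 48 hpi, against 55.5%, 9.98% and 25.5%. A C/EBPβ site was found at 13 at any time and 12 at 48 hpi, against 39.4% and 36.9%. *H2-Ea*, listed in the annotation as a pseudogene, *H2-Eb2*, a class II β chain gene, *H2-DMb1*, *H2-DMb2* and *H2-Ob* share sites with the members, so their counts are not separate from those above. The flanked spans of *H2-Eb2* and *H2-Ea* also overlap each other, with the same highest C/EBPα value, 129. Their C/EBPα calls at 0 h, 1 site each, are therefore not separate observations. Spans also differ in length, which the genome shares do not take into account. *Lgmn*, a lysosomal protease, had the highest site values of the list for PU.1, C/EBPα and C/EBPβ, 319.1, 231.0 and 171.5 reads per 10 M. Each is the maximum of its factor over the sites of the locus, which need not be the same site. *March1*, the ubiquitin ligase that removes class II from the surface, had the largest ratio of PU.1 reads summed over its sites, 1.92 (1.68 to 2.20). Its span was the longest and held 25 sites, 17 of them called for PU.1, the most of the list. *Rfxank*, a subunit of RFX, had the smallest ratio, 0.507 (0.411 to 0.625). *Rfxap*, another RFX subunit, and *Nfyb*, a subunit of NF-Y, had no C/EBP site, and were picked out after their values were seen. The class I processing genes *Tap1*, *Tap2*, *Psmb8* and *Psmb9*, which lie close together in the same chromosomal block, all had PU.1 sites and none for C/EBPα or C/EBPβ, but their flanked spans overlap and share sites, so they are not 4 separate observations.

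As a description of likeness, the log2 read density of each stretch relative to the library median was compared over the 18 libraries with that of 17279 protein-coding loci that held a site. *Sergef*, *Sh2d7* and *Klc1* were most like *Ciita* (Pearson r 0.94, 0.93 and 0.93), and *Rela*, *Il6ra* and *Sipa1* most like *H2-DMa* (0.93, 0.92 and 0.92). *Fkbp5*, *Iqgap1* and *Gm9949* were most like the *H2-Ab1*, *H2-Aa* and *H2-Eb1* stretch (0.98, 0.97 and 0.96), and *Ceacam19*, *0610009D07Rik* and *Fkbp1b* most like *Cd74* (each 0.97). The 18 points share factors and depth, so no p-value is given.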

How the data were processed

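Reads were processed by the authors before deposit: Bowtie or ELAND placed them on mm9 allowing no mismatch, keeping uniquely placed reads and, as the methods state, removing identical ones. In 5 of the 8 C/EBPα files 0.089% to 2.51% of reads were still repeats of a position and strand. The processing notes also name HOMER (versions not given in the sources used here). The deposited files list the position and strand of each aligned read, of 36, 40 or 50 bases, and hold no count or score. Here each 5′ end was moved 75 bp inward, 1 read per position and strand was kept, and reads were counted in 200-bp bins (Python 3.11.15, NumPy 2.4.6, SciPy 1.17.1). A bin was called at a Poisson p of at most 1e-07 over the library mean (genome of 2000000000 bp), when it was also 4-fold above the 10 kb around it and passed a second Poisson limit there of 0.0001, after the rules of HOMER. Called bins of the 18 libraries were merged into sites where at most 200 bp parted them, and summits were set on all libraries together. Intervals are exact Poisson (values) and exact conditional binomial (ratios), at 95%, and cover counting error only. The calling code was tested on simulated reads. Gene positions and sequences came from GENCODE vM1 and its mm9 genome.

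All 6 members are named. Sites were given in full if within 1 kb of a member's start or if highest for a factor in a locus; others are named for contrast after their values were seen. Pathway genes were named at the extremes of their list, and genes of like pattern were the 3 with the highest Pearson r per stretch. The members and lists were chosen with earlier results of these data known. The labels and the methods give different β-estradiol concentrations, so none is stated.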

Additional observations from a re-analysis of the deposited data

How the results depend on the processing

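The 166 alternative values of the 24 ratios of 48 hpi over 0 h at the sites given in full stayed within the counting interval of the reported ratio, whether reads were moved 50 or 100 bp, all reads as deposited were used, libraries were thinned, scaling was to reads outside called bins, or the window was 100 or 500 bp. Those intervals are wide: 17 of the values, at 13 ratios, lay more than 1.5 times from the reported ratio. Thinning left no ratio for C/EBPβ at *Cd74* -8.5 kb and C/EBPα at *Cd74* +3.6 kb, because a library then held no reads there. These are not among the values. With reads counted within 100 bp, PU.1 at the *Ciita* promoter III site was 13.4-fold lower at 48 hpi in place of 7.92-fold. Within 500 bp the PU.1 ratio was 1.59 in place of 2.41 before promoter IV, 2.64 in place of 4.04 at *H2-Eb1* +6.5 kb and 0.842 in place of 1.35, the other side of 1, at *H2-DMa* +0.5 kb. At *H2-DMa* +8.0 kb the C/EBPβ ratio was 2.77 within 500 bp and 7.0 with libraries thinned, in place of 4.22, and the C/EBPα ratio 2.49 within 500 bp and 11.7 within 100 bp, in place of 6.41. Thinned, C/EBPα at *H2-Ab1* +0.9 kb had a ratio of 0.5 in place of 1.11. Counts of sites also depended on the settings. With 10 kb flanks, PU.1 sites numbered 23 at any time, 12 at 0 h and 15 at 48 hpi, and C/EBPα sites 5 at any time and 1 at 48 hpi. At a Poisson p of 1e-05, C/EBPα had 17 sites at any time, 1 at 0 h (in 2 loci) and 2 loci at 48 hpi, and C/EBPβ had 11 sites at any time and 1 at 0 h, in 1 locus. At 1.5 times the count needed, PU.1 had 14 sites at 48 hpi, C/EBPα 1 at 48 hpi, and C/EBPβ 3 at any time and at 48 hpi, in 2 loci. With reads moved 50 bp, C/EBPβ likewise had 3 sites in 2 loci and C/EBPα 1 at 48 hpi, and with reads moved 100 bp or libraries thinned C/EBPα had 1 at 48 hpi. Thinned C/EBPβ libraries had sites in 3 loci. The cause was not tested. Of the 171 alternative counts, 144 stayed within 1.5 times the reported count or equal to it. Within 1000 bp of the start, 7 of 12 PU.1 promoter values lay outside the interval of the 500-bp value, since a wider window takes in more reads. Without replicate libraries or a control precipitation a difference between times cannot be told apart from a difference between libraries. No paired analysis was possible because each factor and time is 1 library.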
